A study of Cucumis melo with 12 samples.

Results

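The change in leaf messenger RNA over 12 h at 4 °C was examined in 13-5A, a melon (Cucumis melo) variety that the labels describe as sensitive to chilling. The comparison sets 3 libraries of 13-5A leaves at 12 h against 3 at 0 h, 6 of the 12 libraries in the series. The other 6 come from leaves of 162, described as tolerant, at 12 h and 0 h. They enter the estimate of the spread behind each p-value and serve below to set the change in 13-5A beside that in 162. All groups carry the 4 °C treatment in their labels, and 0 h is read as the start of exposure, which the labels do not state. No leaves were kept unchilled until 12 h, so chilling and elapsed time, with any change in time of day, cannot be told apart. Examined were the genes whose FPKM in the 6 libraries of 13-5A averaged 1 or more, 15248 of the 21691 in the deposited table. FPKM are fragment counts scaled by gene length and by library total. The lowest mean inside this limit was 1.0005 FPKM and the highest outside it 0.99959 FPKM.

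Melon is a warm-season crop, and its leaves are injured by temperatures well above freezing. In plants generally, cooling stiffens membranes and slows carbon fixation while light is still absorbed, which favours reactive oxygen species. In Arabidopsis the best known transcriptional route runs from the transcription factor ICE1 to the CBF factors and from these to the COR genes, and many of these genes also follow the circadian clock. The deposited identifiers carry no gene names, and 0 of them matched the RefSeq name table, so no gene below is assigned to such a route or to any function. The leaf origin of the samples could not be checked against marker genes for the same reason. In these bulk samples, fewer cells of a type and less RNA per cell cannot be told apart.

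Recovered read totals of the 13-5A libraries ran from 42176796 to 45244323 at 12 h and from 42092449 to 45355323 at 0 h. A gene of 1469 bases, the median length, has about 64 reads for each FPKM. Over the genes tested, log2(FPKM + 1) correlated at 0.974 to 0.982 between libraries at 12 h, at 0.969 to 0.986 between libraries at 0 h, and at 0.833 to 0.868 between the times. Replicate 3 at 12 h stood nearest to the 0 h libraries, with a mean correlation of 0.866 with them, against 0.840 for replicate 1 and 0.848 for replicate 2. Whether replicates were taken from different plants is not stated, and the p-values reflect how far these libraries scatter, which could be technical.

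After 12 h at 4 °C, 1970 of the 15248 genes were called higher and 1424 lower in 13-5A. That is 22.3% of the genes tested, 12.9% higher and 9.34% lower. A call required an adjusted p under 0.05 by limma with Benjamini-Hochberg adjustment and a difference of at least 2-fold on the log2(FPKM + 1) scale, where changes of low genes come out too small. The median log2 difference was 1.502 among genes called higher and -1.39 among those called lower, against 0.07 over all genes tested. The 12 h and 0 h libraries did not overlap in 3357 of the 3394 genes called, and in 9659 (63.3%) of all genes tested, 5362 (35.2%) higher and 4297 (28.2%) lower at 12 h. The adjusted p alone was passed by 7791 genes (51.1%), so a smaller change was found in a further 4397, 2385 of them higher and 2012 lower. Of the genes called, 1587 of those higher and 1101 of those lower kept their call in each of the 6 fits that left out a 13-5A library.

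**Figure D1:**
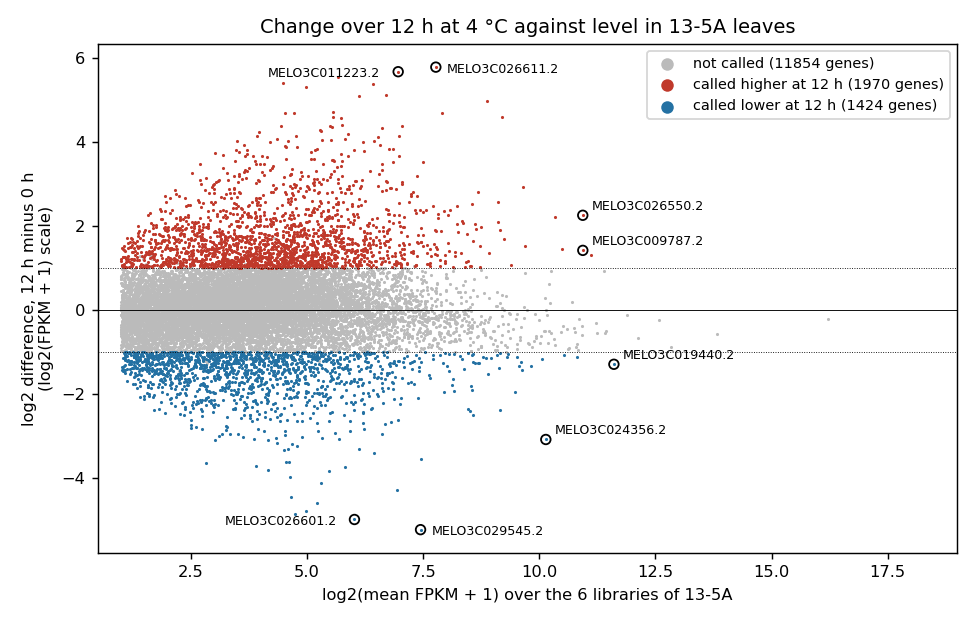
Each point is a gene of 13-5A; the horizontal axis is its level, log2(mean FPKM + 1) over the 6 libraries, and the vertical axis its log2 difference, 12 h minus 0 h, on the log2(FPKM + 1) scale. The 1970 genes called higher (red) and 1424 called lower (blue) lie beyond the dotted lines at 1 and -1, and circles mark the named genes with the largest differences on this scale or in FPKM.

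Rises reached larger sizes than falls. At least 4-fold were 485 rises and 233 falls, at least 8-fold 144 and 34, and at least 16-fold 38 and 8. The rises outnumbered the falls at these sizes on other scales too. At least 8-fold were 262 rises and 113 falls with a pseudocount of 0.1, 131 and 41 with median-ratio scaling of the libraries, and 293 and 134 with limma voom on recovered reads. The balance at the 2-fold limit moved more, with 1730 rises and 1696 falls under median-ratio scaling. That scaling moved the median log2 difference of all genes tested to -0.02, against 0.07 as deposited. A downward shift enlarges falls, so it favours the result that all 1424 falls were called there as well. Of the 1970 rises, 1730 were.

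The direction of change differed with the level of the gene. Among 4104 genes with a mean of 1 to 5 FPKM over the 6 libraries, 334 (8.14%) were called higher and 400 (9.75%) lower. Among 4200 genes of 20 to 100 FPKM, 743 (17.7%) were called higher and 397 (9.45%) lower. Genes of 5 to 20 FPKM lay between, with 721 higher and 526 lower of 5973, and the 971 genes of 100 FPKM or more had 172 higher and 101 lower. The median log2 difference of all genes in a class, called or not, was -0.06, 0.12, 0.19 and -0.11 from the lowest class to the highest. In the top class the median gene thus fell slightly, although more rises than falls were called. Falls exceeded rises in the lowest class with a pseudocount of 0.1 (514 higher, 698 lower), under median-ratio scaling (312 and 484) and with voom (500 and 705). In the class of 20 to 100 FPKM rises exceeded falls on those scales, with 778, 651 and 782 higher against 422, 466 and 424 lower. From 5 to 20 FPKM the excess of rises nearly vanished under median-ratio scaling, with 619 higher and 615 lower, and from 100 FPKM it shrank there to 148 higher and 131 lower. With a pseudocount of 0.1 and with voom this top class had 173 and 174 higher and 103 and 103 lower.

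**Figure D2:**
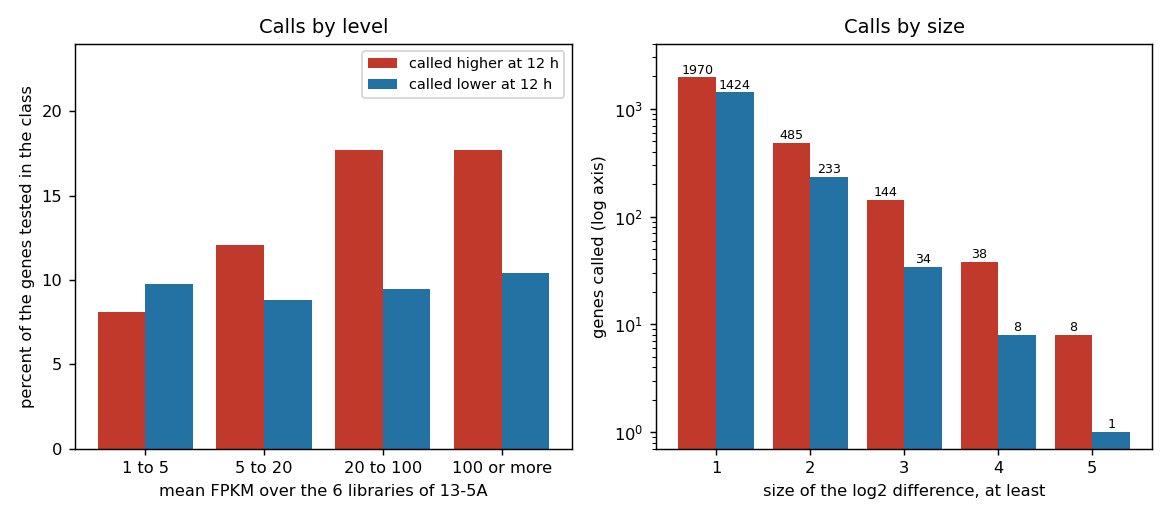
Left, percent of the genes tested that were called higher (red) or lower (blue) at 12 h in 13-5A, by class of mean FPKM over its 6 libraries; right, number of genes called, on a log axis, by the least size of the log2 difference. Calls of higher genes make up 8.14% of the lowest class and 17.7% of the class of 20 to 100 FPKM, and 144 rises stand against 34 falls at a log2 difference of at least 3.

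For more than 50% of the genes a difference of 1 on the log2(FPKM + 1) scale was outside the interval of the estimate. On this scale a 2-fold change of a low gene comes out smaller than 1. The counts therefore do not show that low genes changed less than 2-fold. The 95% confidence interval of the log2 difference lay within 1 of zero for 8338 genes (54.7%) and within 0.5 of zero for 1915 genes (12.6%). Part of the calls depended on the level limit. In 412 genes the mean reached 1 FPKM at 12 h and not at 0 h, of which 227 were called higher, and in 513 it did so at 0 h and not at 12 h, of which 230 were called lower. In these genes the limit itself favours a difference. In the 14323 genes that averaged 1 FPKM or more at both times, 1743 were called higher and 1194 lower.

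The transcriptome of 13-5A was spread over more genes at 12 h. At 12 h, 549, 577 and 465 genes made up 50% of the summed FPKM of a library, against 302, 292 and 344 genes at 0 h. All 3 libraries at 12 h lay above all 3 at 0 h. The 10 highest genes of each library held 17.3%, 15.9% and 19.3% of FPKM at 12 h, against 21.5%, 22.0% and 20.4% at 0 h. The difference in means was -3.83 percentage points (17.5% ± 1.69 at 12 h, 21.3% ± 0.831 at 0 h, SD, n = 3 each, two-sided exact permutation p = 0.1, the smallest that 3 against 3 allows). Genes at or above 100 FPKM numbered 1018, 1073 and 1024 at 12 h, against 912, 914 and 899 at 0 h. Genes at or above 1 FPKM numbered 14900, 15020 and 14765 at 12 h, against 15035, 15086 and 15063 at 0 h. So more genes stood at or above 100 FPKM at 12 h while slightly fewer passed 1 FPKM, each without overlap between the times. FPKM are relative to the library total. A smaller share of the highest genes by itself raises the FPKM of the others, so these counts do not measure absolute levels.

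**Figure D3:**
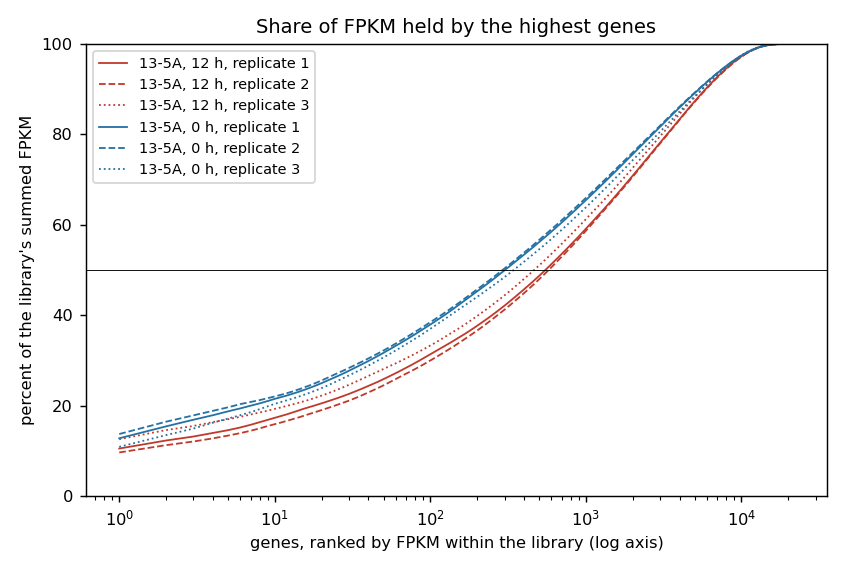
Percent of a library's summed FPKM (vertical axis) held by its highest genes, ranked within the library on a log axis, for the 3 libraries of 13-5A at 12 h (red) and the 3 at 0 h (blue). The 12 h curves reach the line at 50% after 465 to 577 genes and the 0 h curves after 292 to 344.

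The most abundant gene did not pass the test. MELO3C012252.2, highest of all 21691 genes at both times, had 66665, 61670 and 82212 FPKM at 12 h, against 83269, 90845 and 70693 FPKM at 0 h. These libraries overlapped, and the log2 difference was -0.22 (SE 0.30, adjusted p = 0.571 by limma). It held 10.9% ± 1.503 of FPKM at 12 h and 12.5% ± 1.45 at 0 h (SD, n = 3 each). The genes at ranks 2 to 10 of each library held 6.58% ± 0.288 at 12 h and 8.85% ± 0.615 at 0 h (SD, n = 3 each), without overlap. MELO3C023879.2, second at both times, had 11284, 10289 and 13245 FPKM at 12 h, against 17154, 18013 and 16879 FPKM at 0 h. Its log2 difference of -0.59 (SE 0.23, adjusted p = 0.0486 by limma) was below the 2-fold limit.

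Among the 100 genes highest by mean FPKM, 68 were the same at 12 h and 0 h. Of the 32 that stood in this list at 12 h but not at 0 h, 20 were called higher, and of the 32 that stood in it at 0 h but not at 12 h, 17 were called lower. Entry and exit follow from the change in level, so these counts describe the turnover and test nothing. Summed over genes, the rise in mean FPKM of the genes called higher was spread more widely than the fall of those called lower. In each case the largest changes came first: 151 of the 1970 genes called higher made up 50% of the summed rise, and 71 of the 1424 called lower made up 50% of the summed fall.

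The largest changes in FPKM fell on genes that were already abundant, which choosing by the difference in FPKM favours. MELO3C026550.2 had 3661, 3274 and 2781 FPKM at 12 h, against 658, 648 and 726 FPKM at 0 h. It rose by 2.25 on the log2 scale (SE 0.32, adjusted p = 0.000111 by limma) and stood at rank 8 by mean FPKM at 12 h and rank 94 at 0 h. MELO3C009787.2 had 3135, 2626 and 2787 FPKM at 12 h, against 951, 1181 and 1079 FPKM at 0 h, a rise of 1.41 (SE 0.24, adjusted p = 0.000505 by limma). Together these genes made up 4.68% of the summed rise. In the other direction MELO3C019440.2 had 1486, 2050 and 1903 FPKM at 12 h, against 4263, 4704 and 4292 FPKM at 0 h (log2 difference -1.30, SE 0.29, adjusted p = 0.00292 by limma). It was at rank 17 at 12 h and rank 6 at 0 h. MELO3C024356.2 had 158, 280 and 283 FPKM at 12 h, against 2103, 2407 and 1537 FPKM at 0 h (log2 difference -3.09, SE 0.31, adjusted p = 9.87e-06 by limma), and moved to rank 330 at 12 h, against rank 21 at 0 h. These falls made up 7.79% of the summed fall.

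On the log2(FPKM + 1) scale the largest rises among genes averaging 5 FPKM or more were those of MELO3C026611.2 and MELO3C011223.2. MELO3C026611.2 had 479, 309 and 496 FPKM at 12 h, against 5.87, 3.78 and 12.8 FPKM at 0 h. The highest 0 h library was far below the lowest at 12 h, and the log2 difference was 5.77 (SE 0.53, adjusted p = 4.89e-06 by limma). It stood at rank 139 by mean FPKM at 12 h and rank 9110 at 0 h. MELO3C011223.2 had 261, 246 and 221 FPKM at 12 h, against 5.62, 0.826 and 8.11 FPKM at 0 h (log2 difference 5.66, SE 0.57, adjusted p = 9.76e-06 by limma). Both genes were lowest in replicate 2 and highest in replicate 3 at 0 h, and without that replicate 2 the difference of MELO3C011223.2 was 4.97. The order of the rises depends on the scale: MELO3C009162.2, described below, had 5.38 here, but 8.49 with a pseudocount of 0.1 and 11.2 with voom, against 5.97 and 5.98 for MELO3C026611.2 and 6.11 and 6.12 for MELO3C011223.2. MELO3C026611.2 and MELO3C011223.2 rose in 162 too, by 5.06 and 5.48 on the log2 scale, and the interaction, the 13-5A effect minus the 162 effect, was 0.71 (SE 0.75) and 0.18 (SE 0.81), with adjusted p = 0.618 and 0.926 by limma.

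On the log2(FPKM + 1) scale the largest falls among genes averaging 5 FPKM or more were those of MELO3C029545.2 and MELO3C026601.2. MELO3C029545.2 had 7.03, 5.95 and 11.7 FPKM at 12 h, against 351, 269 and 395 FPKM at 0 h (log2 difference -5.23, SE 0.27, adjusted p = 1.22e-07 by limma). MELO3C026601.2 had 1.46, 4.16 and 3.56 FPKM at 12 h, against 111, 164 and 99.8 FPKM at 0 h (log2 difference -4.99, SE 0.44, adjusted p = 3.62e-06 by limma). This order depends on the scale: MELO3C006700.2, described below, changed by -3.65 here, but by -6.65 with a pseudocount of 0.1 and -8.73 with voom, against -5.39 and -5.40 for MELO3C029545.2 and -5.40 and -5.43 for MELO3C026601.2. By mean FPKM MELO3C029545.2 moved to rank 9082 at 12 h, against rank 213 at 0 h, and MELO3C026601.2 to rank 12470, against rank 706. In 162 MELO3C026601.2 fell too (log2 difference -4.055, interaction -0.94, SE 0.62, adjusted p = 0.402 by limma). MELO3C029545.2 is taken up again below, since its fall differed between the varieties.

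**Figure D4:**
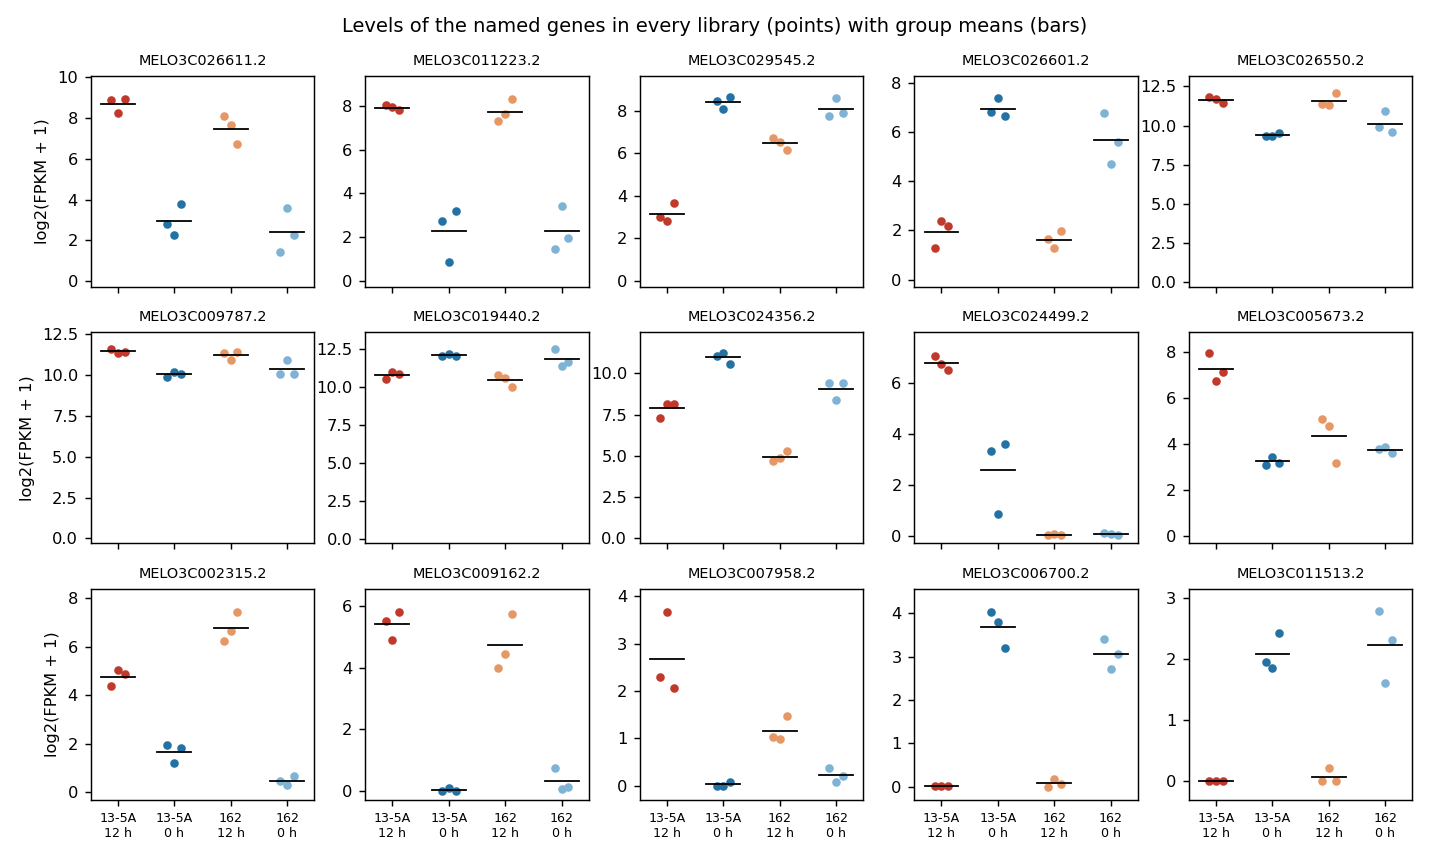
Level of each named gene, as log2(FPKM + 1) on the vertical axis, in the 3 libraries of 13-5A at 12 h, 13-5A at 0 h, 162 at 12 h and 162 at 0 h (points), with group means (bars); vertical scales differ between panels. In MELO3C029545.2 the 12 h libraries of 13-5A (5.95 to 11.7 FPKM) lie below those of 162 (68.7 to 103 FPKM), while in MELO3C024499.2 all 6 libraries of 162 lie near 0.

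Switching between near absence and clear presence was rare within the level limit and by the strict definition used here. That limit, a mean of 1 FPKM over the 6 libraries, leaves out genes that switched at little more than 1 FPKM. The genes counted passed it through their higher time alone. Counting a gene as off when all 3 libraries of a time were below 0.1 FPKM and as on when all 3 were at 1 FPKM or more, 8 genes were off at 0 h and on at 12 h, and 4 were on at 0 h and off at 12 h. Since all 3 libraries must qualify, leaving out a library can only keep or raise the total of 12. It became 13 to 20, highest without replicate 2 at 0 h. With off set below 0.5 FPKM it was 122. MELO3C009162.2 had 45.3, 28.8 and 54.9 FPKM at 12 h, from 7145 reads, against 3 reads in all at 0 h, each of them in replicate 2. The ratio of reads, scaled by library totals, was 2390 (exact 95% interval 817 to 11600, counting error only), and the gene rose in 162 as well (log2 difference 4.42). MELO3C007958.2 had 3.88, 11.8 and 3.18 FPKM at 12 h, from 720 reads, against 2 reads at 0 h, a ratio of 361 (exact 95% interval 99.6 to 2990). Replicate 2 stood far above the other 12 h libraries. The other genes that came on had means of 2.03 to 5.64 FPKM at 12 h.

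Of the genes that went off, MELO3C006700.2 had 1 read in each library at 12 h, against 857, 671 and 450 reads at 0 h, or 15.4, 13.0 and 8.19 FPKM. Reads at 0 h exceeded those at 12 h by a ratio of 657 (exact 95% interval 225 to 3190, counting error only). MELO3C011513.2, of 153 bases, had 0 reads at 12 h and 20, 17 and 30 reads at 0 h, so it was at least 7.39-fold lower at 12 h, counting 3 reads per library as the floor. The other genes of this kind were MELO3C024233.2 with 3 reads at 12 h and 202 at 0 h, and MELO3C017103.2 with 3 reads at 12 h and 440 at 0 h, both named after their values were seen. MELO3C006700.2 and MELO3C011513.2 fell in 162 too, to means of 0.0583 and 0.0528 FPKM at 12 h, against 7.51 and 3.99 FPKM at 0 h.

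The genes called in 162 over the same 12 h were followed in each 13-5A library. The 13-5A libraries had a part in this choice, through the level limit and the shared estimate of the spread. In the 15248 genes, 1401 (9.19%) were called higher in 162 and 1596 (10.5%) lower. The genes called higher in 162 had a median log2 difference of 1.67, 1.62 and 1.48 in the 3 libraries of 13-5A at 12 h, taken against the mean of its 0 h libraries, and of -0.04, -0.13 and 0.18 in those at 0 h, each taken against the other two. The genes called lower in 162 had medians of -1.20, -1.10 and -1.10 at 12 h and of -0.05, 0.05 and -0.0023 at 0 h. Every 12 h library of 13-5A therefore lay on the side of the 162 response, replicate 3 least far for the genes higher in 162. Over all genes tested the medians were 0.08, 0.11 and 0.03 at 12 h and -0.02, -0.04 and 0.06 at 0 h.

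Most genes that changed in 13-5A moved the same way in 162. Of the 1970 genes called higher in 13-5A, 1107 were called higher in 162, which is 56.2% of the 13-5A list and 79.0% of the 162 list. Of the 1424 called lower, 915 were called lower in 162, 64.3% of the 13-5A list and 57.3% of the 162 list. A further 859 genes higher in 13-5A were not called in 162, and 760 of them (88.5%) had a log2 difference of the same sign there. The median over all 859 was 1.25 in 13-5A and 0.61 in 162. Of the 508 genes lower in 13-5A and not called in 162, 485 (95.5%) had the same sign, with a median of -1.21 in 13-5A and -0.71 in 162. The shares of all genes tested that rose or fell in 162 were not counted, so these same-sign shares have no background beside them. Over all 15248 genes the log2 differences of the varieties had a Pearson correlation of 0.829. Choosing genes by their call in 13-5A favours a larger size there. The 0 h libraries of 162 were uneven. Genes called higher in 13-5A held 7.63%, 11.9% and 8.70% of FPKM in its replicates 1, 2 and 3 at 0 h. That replicate 2 also correlated best with the 162 libraries at 12 h (0.873 to 0.897). What this did to the calls in 162 was not tested.

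**Figure D5:**
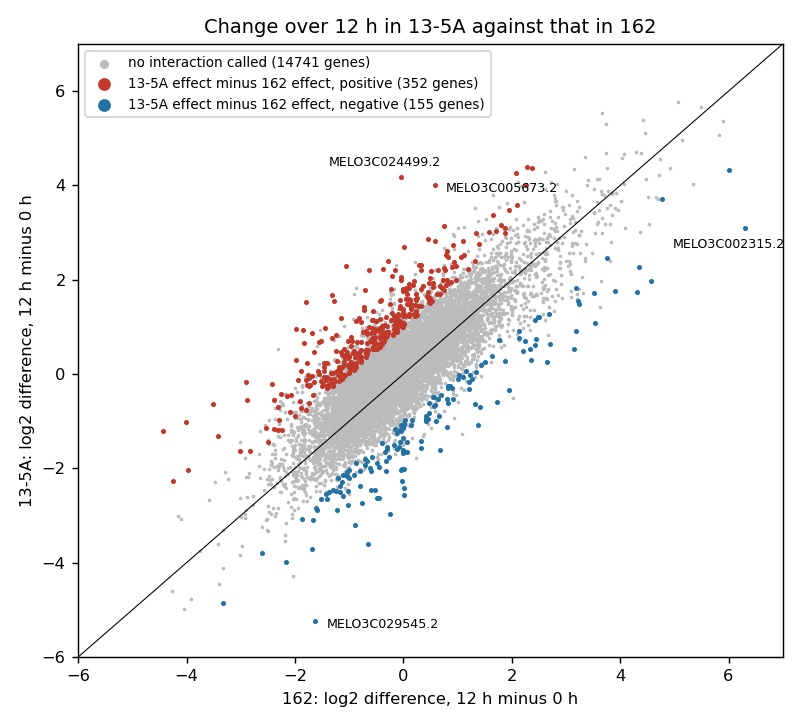
Each point is a gene; the vertical axis is its log2 difference, 12 h minus 0 h, in 13-5A and the horizontal axis that in 162, both on the log2(FPKM + 1) scale, with a line of equality. Genes with a called interaction are red where the 13-5A effect minus the 162 effect is positive (352) and blue where it is negative (155).

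A difference between the varieties was called by the interaction test of limma in 507 genes (3.33% of those tested), with a change more upward in 13-5A for 352 (2.31%) and more downward for 155 (1.02%). This split depended on scaling: under median-ratio scaling 170 were positive and 253 negative, as the median interaction of all genes moved to -0.01, against 0.16 as deposited. All 155 negative ones kept their call there and 170 of the 352 positive ones did. Among the positive interactions, 131 genes were called higher in 13-5A and not called in 162, with medians of 1.58 and 0.11, while 94 were called lower in 162 and not called in 13-5A, with medians of -0.02 in 13-5A and -1.43 in 162. Among the negative ones, 57 genes were called lower in 13-5A and not called in 162, with medians of -1.77 and -0.17, and 31 were called higher in 162 and not called in 13-5A, with medians of 0.26 and 1.77. The number of interactions depended on single libraries. Among those of 13-5A at 0 h, it was 156 without replicate 1 and 294 without replicate 3. Among those of 13-5A at 12 h, it was 198 without replicate 1 and 298 without replicate 2. Among those of 162 at 12 h, it was 335 without replicate 1, 234 without replicate 2 and 620 without replicate 3. For 162 at 0 h, leaving out replicates 1, 2 and 3 in turn gave 479, 614 and 418.

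The most positive interactions were in genes that rose steeply in 13-5A and were not called in 162. MELO3C024499.2 had 132, 107 and 90.4 FPKM in 13-5A at 12 h, against 9.05, 0.803 and 11.01 FPKM at 0 h (log2 difference 4.18, SE 0.52, adjusted p = 4.51e-05 by limma). In 162 its means were 0.0255 FPKM at 12 h and 0.0529 FPKM at 0 h, so it was hardly detected at either time. The interaction was 4.22 (SE 0.74, adjusted p = 0.0122 by limma), and with voom on recovered reads it was 5.37 (SE 3.16, adjusted p = 0.348) and was no longer called. Replicate 2 of 13-5A at 0 h was far below the others, and without it the log2 difference in 13-5A was 3.31 and the interaction 3.35 (adjusted p = 0.00018 by limma). MELO3C005673.2 had 247, 105 and 138 FPKM in 13-5A at 12 h, against 32.5, 26.9 and 8.07 FPKM in 162. At 0 h it was present in both varieties, with 7.66, 10.02 and 8.14 FPKM in 13-5A and 12.8, 13.9 and 11.2 FPKM in 162. The 12 h libraries of 13-5A were all above those of 162, and the interaction was 3.43 (SE 0.59, adjusted p = 0.0117 by limma).

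The most negative interactions took different forms. MELO3C029545.2 fell in both varieties, but its levels at 12 h were 7.03, 5.95 and 11.7 FPKM in 13-5A, against 103, 92.0 and 68.7 FPKM in 162. At 0 h it had 351, 269 and 395 FPKM in 13-5A, against 215, 386 and 234 FPKM in 162, which overlapped (interaction -3.61, SE 0.39, adjusted p = 0.000697 by limma). MELO3C002315.2 rose in both, with 20.1, 31.6 and 28.2 FPKM in 13-5A at 12 h, against 2.93, 1.33 and 2.54 FPKM at 0 h (log2 difference 3.09, SE 0.29, adjusted p = 5.24e-06 by limma). Its levels in 162 were 75.02, 98.8 and 170 FPKM at 12 h, against 0.370, 0.222 and 0.587 FPKM at 0 h. The smaller change in 13-5A thus combined a higher start and a lower level at 12 h (interaction -3.21, SE 0.41, adjusted p = 0.0025 by limma).

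Opposite calls in the varieties were found in 5 genes, which the naming rule does not cover and which were picked on their values. The genes MELO3C017480.2, MELO3C016588.2, MELO3C005466.2 and MELO3C016595.2 were called higher in 13-5A and lower in 162. Their median log2 difference was 1.54 in 13-5A and -1.31 in 162, and all 4 had a called positive interaction. The largest rise of these in 13-5A was that of MELO3C016588.2, which had 74.6, 83.7 and 114 FPKM at 12 h, against 33.4, 15.5 and 39.0 FPKM at 0 h (log2 difference 1.67, adjusted p = 0.00244 by limma). MELO3C020143.2 was called lower in 13-5A and higher in 162 (log2 difference 1.37 in 162), with a called negative interaction. In 13-5A it had 15.5, 17.0 and 9.52 FPKM at 12 h, against 27.0, 24.2 and 40.5 FPKM at 0 h (log2 difference -1.07, adjusted p = 0.0277 by limma), which put it near the 2-fold limit.

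Replicate spread in 13-5A was much alike at 12 h and 0 h. Genes of a library vary together, so the counts below do not test a difference in spread, and none was tested. The correlations between libraries given above overlapped between the times, with the lowest pair at 0 h. The median SD over genes on the log2(FPKM + 1) scale was 0.17 at 12 h and 0.16 at 0 h, and 8187 genes (53.7%) had the larger SD at 12 h. Among genes called lower the medians were 0.21 and 0.17, and among genes called higher 0.22 and 0.20. Gene length hardly differed between the classes. Its median, recovered from the FPKM, was 1642 bases for genes called higher, 1587 for genes called lower and 1656 for genes not called.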

How the data were processed

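Leaf RNA of 2 melon varieties was sequenced after 12 h and 0 h at 4 °C, as 4 groups of 3 libraries. Per the labels' protocols, TRIzol was used for extraction and a VAHTS Universal V6 kit for the libraries, which an Illumina NovaSeq read as pairs. The authors deposited FPKM. Not given in the sources used here are their aligner, counter, genome build and annotation. Columns were matched to samples by the labels' descriptions, with 0 columns left over.

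Values of log2(FPKM + 1), pseudocount 1, were fitted by limma 3.58.1 (R 4.3.3), trend on, over all 12 libraries as 4 groups (8 residual degrees of freedom). Adjusted p-values cover the 15248 genes that averaged 1 FPKM or more in the 6 libraries of 13-5A. Since FPKM hide depth, lengths and totals were solved for so that values became whole reads, and 100% did within 0.001. Whether such a read is 1 read or a pair was not resolved. Intervals and floors cover counting error only. Pairs of libraries of one time had a chi-square per gene of 38.4 to 113, well past sampling noise, and none was merged. Both steps were tested on simulated data. Other steps used Python 3.11.15, numpy 2.4.6, pandas 2.3.3 and matplotlib 3.10.9.

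Named genes are, for each direction, the 2 called genes with the largest log2 difference (mean of at least 5 FPKM, no overlap), the 2 with the largest FPKM difference (called, no overlap), the 2 largest called interactions (mean of at least 5 FPKM) and the 2 highest genes switched on or off, plus the 2 most abundant genes. The genes examined and these rules were chosen with earlier results of these data known. Alternatives were another pseudocount, filter, scaling and trend setting, no fold minimum, the 6 libraries alone, a replicate block, voom, other off and on limits, and each library left out.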

Additional observations from a re-analysis of the deposited data

Results flagged for a closer look

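These results are given because the change over 12 h differed between 13-5A and 162 by the interaction test of limma (13-5A effect minus 162 effect). The test called 507 genes. Of the named genes, MELO3C024499.2 had an interaction of 4.22 and MELO3C005673.2 of 3.43, both from rises in 13-5A. MELO3C029545.2 had -3.61, from a deeper fall in 13-5A, and MELO3C002315.2 had -3.21, from a smaller rise in 13-5A. These genes were chosen as the largest called interactions, and MELO3C029545.2 also for its fall in 13-5A. The adjusted p of MELO3C005673.2 stayed between 0.00446 and 0.041 over its alternatives, that of MELO3C029545.2 between 0.000373 and 0.00459, and that of MELO3C002315.2 between 0.002 and 0.0108. That of MELO3C024499.2 ran from 0.00018 to 0.348, the highest with voom.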

How the results depend on the processing

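Of 716 values under alternatives, 700 counted as the same. These kept their side of the threshold, and their direction if called, or stayed within 1.5 times the count or within the replicate spread. A difference that was not called could change sign and still count. The interaction of MELO3C019440.2 did so, with 0.07 as deposited and -0.13 under median-ratio scaling. Many values concern genes chosen as the largest, so this tally overstates stability. Without the fold minimum 7791 genes were called for 12 h against 0 h, by construction. Leaving out each library of either variety gave 156 to 620 interactions. Without each 13-5A library in turn, 3176 to 3571 genes were called for 12 h against 0 h. From 13 to 20 genes were then switched on or off, a count that can only stay or grow when a library is dropped. The share of the 10 highest genes then changed by -4.72 to -3.03 percentage points. For the 100 highest genes that change was -6.25. With off set below 0.5 FPKM 122 genes were switched, and with on set at 5 FPKM or more 2 were; fewer or more genes qualify by construction. The voom fit gave an adjusted p of 0.348 for the interaction of MELO3C024499.2; the cause was not tested. The interaction of MELO3C007958.2 (1.71, adjusted p = 0.0563 by limma) was called with a pseudocount of 0.1 (3.14, adjusted p = 0.0376) and without replicate 2 (1.21, adjusted p = 0.0363) or 3 (2.02, adjusted p = 0.0379) of 13-5A at 12 h, and that of MELO3C009162.2 without replicate 3 of 162 at 12 h (1.47, adjusted p = 0.0429). Totals without the most abundant gene, an alternative chosen after seeing the data, gave 3416 calls and 477 interactions, and the counts by level and size on other scales were added then too. Whether replicate numbers pair the samples is not stated. Deviations of the 12 h and 0 h libraries of equal number showed no positive correlation (-0.0828, -0.0297 and -0.259), which cannot settle it with so few libraries. The replicate block gave 3386 calls and 345 interactions. Genes of few reads are limited by depth, about 64 reads for each FPKM in a gene of median length.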
